A study of Caenorhabditis elegans with 23 samples.

Results

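Some stretches of the Caenorhabditis elegans genome read so much like one another that a short sequencing read fits several of them, and a read that was divided between its places leaves part of a read in each. The windows described here were found by that trace. The deposited table gives RPKM (reads per kilobase, scaled to library size) for 100257 windows of 1 kb. Windows were chosen by the measured values themselves. A window belongs to the set when its mean over the 19 libraries was at least 1 RPKM, at least 5 of its positive values were below 10 reads, over 50% of those values lay more than 0.1 read from a whole number, and the authors' GRTS and GRH columns both read no. The rule chose 2495 windows out of 41323 with a mean of at least 1 RPKM. Of those 41323, only 30187 had enough low values to be judged, so the other 11136 could not be chosen. Values of 0 do not count as low, so these need not all be windows with high signal.

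The study asks how SET-32, a putative histone methyltransferase, takes part in setting up heritable nuclear RNAi silencing. Total RNA without poly(A) selection was sequenced from young adult hermaphrodites after ribosomal RNA had been removed with RNase H. The groups used here were 5 libraries with hrde-1 never mutated, namely N2, met-2(n4256) set-25(n5021), set-32(red11), set-32(ok1457), and a strain with ok1457 added to those met-2 and set-25 alleles. The next 5 carried hrde-1(tm1200), namely hrde-1(tm1200) alone and with set-32(ok1457), set-32(red11), met-2 set-25, or set-32(red11) and met-2 set-25. In the remaining 9 the hrde-1 mutation had been repaired, written hrde-1(+R). They were hrde-1(+R) alone at generations F4 and F5, met-2 set-25 at F3 and F5, set-32(ok1457) at F5 and F8, set-32(red11) at generations F4 and F5, and red11 with met-2 set-25 at F5. The 4 libraries from generation F20 were not analysed here. Each genotype and generation had 1 library, so genotypes were compared by pooling libraries that share an allele. Nothing in the labels says whether libraries came from separate cultures, and the p-values then measure the spread between these libraries. Generations of the same repaired genotype were counted as separate libraries in the fits, with no term for their shared strain.

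HRDE-1 is a germline Argonaute that carries small RNAs into the nucleus and silences matching genes across generations. MET-2 and SET-25 are methyltransferases that act on lysine 9 of histone H3. Many known targets of this pathway are transposon-derived or otherwise repeated, and repeated sequence is also where a read cannot be given a single place, so a value in such a window can come from any of its copies.

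The worth of 1 read ranged from 0.868 to 2.18 RPKM between libraries, which corresponds to 458690 to 1152486 reads. Values of a few RPKM therefore rest on a few reads. The labels were compared with the signal at the mutated genes, where some windows separated the mutants from the other libraries and some did not. A window of set-25 at III 13288001 held 0 RPKM in the 7 libraries mutant for met-2 and set-25, and 15.8 to 44.7 in the 12 others, and one of set-32 at I 9519001 held 0.88 to 6.94 in the 11 set-32 mutants and 8.28 to 16.4 in the 8 others. In hrde-1 at III 4175001 the 5 tm1200 libraries held 58.3 to 87.6 RPKM and the 14 others 136 to 330. Summed over its windows, met-2 held 39.3 to 59.2 RPKM in its 7 mutants and 155 to 285 in the 12 others. For hrde-1 the sums overlapped, at 342 to 556 RPKM in the tm1200 libraries and 502 to 1085 in the others. Those of set-32 (6.57 to 22.4 against 18.2 to 36.4) and set-25 (32.6 to 80.9 against 70.2 to 143) overlapped too. A list of 6 germline genes such as glh-1 summed to 1001 to 1725 RPKM, and none of its genes was at 0 in all libraries. The windows described here held between 1.04% and 2.08% of the summed RPKM of a library, with a median of 1.41%, and the highest share was in the hrde-1(+R) F4 library.

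The set was mostly low in signal. Mean values ran from 1 to 47.2 RPKM with a median of 3.34, and 63.8% of the windows lay below 5 RPKM. The smallest value in a window shows how finely reads were divided there, since a read shared evenly by a pair of places leaves 1/2 in each. That smallest value was 1/2 of a read in 420 windows, 1/3 in 144, 1/4 in 75, 1/5 in 83, 1/6 in 50 and 1/7 in 49. It was smaller than 1/10 in 243. In 885 windows every value above 0 was at least 0.95 read, so that only the fractions above a whole read showed the division.

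**Figure D1:**
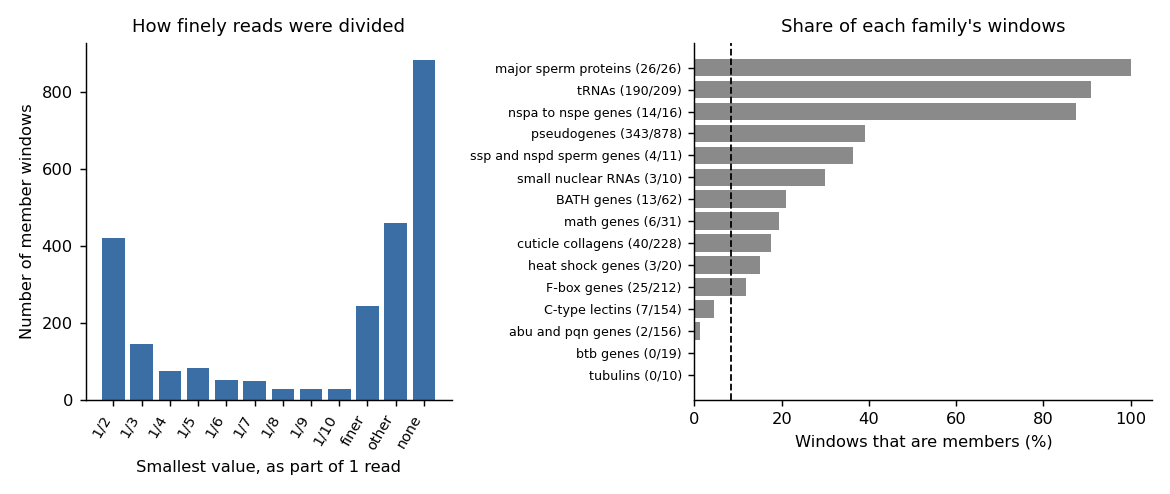
Left, the number of windows (vertical axis) by the smallest value seen in any of the 19 libraries, as a part of 1 read; "finer" is smaller than 1/10, "other" is another part below 0.95 read and "none" means that no value was below 0.95 read. Right, for each gene family with at least 10 windows that could be judged, the percentage of them in the set (counts in brackets); the dashed line is 8.27%, the share over all windows that could be judged. All 26 major sperm protein windows and 190 of 209 tRNA windows were in the set.

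Windows of the set were found on every chromosome, from 383 on chromosome III to 520 on chromosome IV. Among windows that could be judged, the share in the set was 9.65% in the outer parts of the chromosomes (the 25% nearest each end) and 6.78% in the 50% between them, and the outer share was the higher one on each of the 6 chromosomes. The difference was widest on X, with 11.3% against 6.07%, and narrowest on III, with 7.79% against 7.21%. The 2495 windows merged into 1608 regions, of which 1144 were single windows.

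The annotation shared by these windows was poor in exons. The comparison used stretches of chromosome where the table and the WBcel235 annotation lined up. There 28.2% of the set had no exon, against 6.45% of undivided windows. Undivided windows here are all judged windows with at most 50% fractional values, whatever their marks. Some of these hold divided reads as well, since 4053 windows without GRTS or GRH marks had over 20% fractional values. Part of that 28.2% lay inside introns, namely 11.8% of the set against 3.81% of undivided windows, and the rest had no annotated gene. Pseudogenes, disabled copies of genes, were present in 343 windows of the set, or 14.2%, against 1.93% of undivided windows. Transfer RNA genes were present in 190 windows, or 7.88%, against 0.0713%. These features describe the set and follow in part from the rule, since many pseudogenes and tRNA genes have copies elsewhere in the genome.

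The longest regions lay both in and out of genes. A region of 14 windows at III 6771001 to 6786000 lay in dig-1 and a region of 13 windows at V 6171001 to 6184000 lay in ttn-1, which encodes a giant titin-like muscle protein built of repeated domains. Which places share the reads of these windows was not tested. Other long regions had no annotated gene, among them I 10204001 to 10220000 with 15 windows and III 6565001 to 6576000 with 11.

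A value in one of these windows is not a separate measurement where its copy holds the same reads. In 12 pairs the RPKM of both windows agreed within 0.015 in at least 17 of the 19 libraries, and in 6 pairs they agreed in all 19. The windows X 274001, X 276001 and X 277001 held the same values as X 286001, X 284001 and X 283001, in the mirrored order, with means of 1.56, 1.24 and 1.81 RPKM. Their smallest values were 1/3, 1/3 and 1/2 of a read. At IV 5241001 and IV 5249001, both annotated Y59E9AR.7, the means were 13.0 RPKM in each. The heat-inducible small chaperone gene hsp-16.48 had such a pair in neighbouring windows, V 9088001 and V 9089001, with means of 6.68 and 6.71 RPKM.

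On chromosome V the same distance of 108 kb separated 3 of the pairs. Followed along the chromosome at that distance, 17 pairs of windows had values that correlated over the 19 libraries with r of at least 0.75, as a description of windows that share reads. The annotation names the same gene at both ends in several of them, for example clec-209, a C-type lectin gene, at V 2352001 and V 2460001, with means of 92.2 and 92.1 RPKM. Neither of those windows was in the set. In the same stretch V 2387001 and V 2495001, both annotated Y19D10A.4, were in the set with means of 1.68 and 1.65 RPKM and smallest values of 1/2 of a read.

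Windows on different chromosomes also moved together. Joined by a Pearson correlation of at least 0.95 over the 19 libraries, 429 windows, or 17.2% of the set, fell into 73 groups. Windows were joined in chains, so not every pair in a group reached 0.95. In the largest group, of 69 windows, the lowest pairwise r was 0.190. This grouping was chosen after the values were seen. The points share libraries and, in part, reads, and how much of the likeness is shared reads was not tested. The largest group joined at r of at least 0.98 had 24 windows on 3 chromosomes, with a lowest pairwise r of 0.929. Many of them overlap major sperm protein genes such as msp-33, and ssp-36 at IV 9766001 was among them. A group of 22 windows on 5 chromosomes had means of only 1.26 to 1.96 RPKM. Its median log2 fold change was 1.33 with tm1200 and 1.11 in repaired against never-mutated libraries, but none of its windows was called in the comparisons described below.

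Transfer RNA genes gave the plainest view of copies. Many tRNA genes occur as identical short copies in the genome, and chromosome X holds the most tRNA genes. In the set 195 windows held the midpoint of a tRNA gene, and 90 of them were on X. A group of 11 windows on 4 chromosomes ran together at r of at least 0.967 in every pair, and its levels came in steps. The 7 windows with 1 annotated tRNA gene had means from 7.31 to 7.97 RPKM. The 3 windows with 2 annotated tRNA genes, X 5801001, X 8969001 and X 15796001, had means from 15 to 15.4 RPKM. Within single libraries the mean of those 3 windows divided by the mean of the 7 ranged from 1.75 to 2.17, with a median of 1.99. The last window, at X 13511001, had no annotated tRNA gene and a mean of 7.45 RPKM. In a second group of 10 windows the steps did not follow the annotation as closely. Its 8 windows with 1 annotated tRNA gene ranged from 12.1 to 24.7 RPKM, and the 1 with 3 such genes had 24.3 RPKM.

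**Figure D2:**
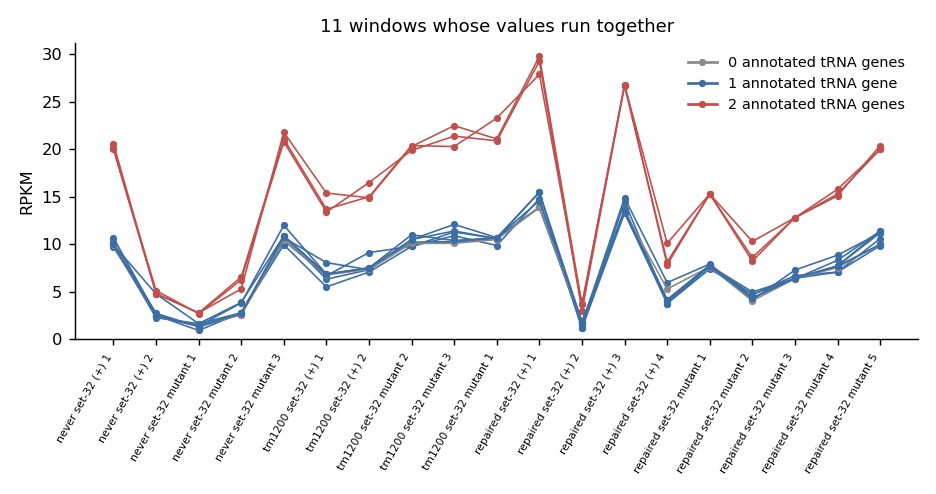
RPKM (vertical axis) in each of the 19 libraries (horizontal axis) for the 11 tRNA windows that ran together, 1 line a window, coloured by the number of annotated tRNA genes. The lines with 2 genes keep close to 1.99 times the level of those with 1 gene, while the level itself varies between libraries.

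The level of tRNA windows varied between libraries far more than within a group of copies. Summed over the 190 windows it was 5073 RPKM in the hrde-1(+R) F4 library and between 1074 and 2417 RPKM in the 18 others. The F5 library of the same genotype held the lowest value, 1074 RPKM, so both hrde-1(+R) libraries without other mutations lay at the ends of the range. None of the 190 windows passed the test in any of the 8 comparisons. At IV 3552001, the highest tRNA window, which also overlaps osm-9, the values in the 5 tm1200 libraries ranged from 18.8 to 42.0 RPKM and those in the 5 never-mutated libraries from 1.73 to 39.3 RPKM, so the groups overlapped.

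Changes between genotypes were tested on log2(RPKM + 1) with limma over all 41323 windows. A window was called with a Benjamini-Hochberg adjusted p under 0.05 and a log2 fold change of at least 1 in size. Fold changes below are on the log2(RPKM + 1) scale, which understates changes at low RPKM. Shares over all windows tested include 142 GRTS and 175 GRH windows, which the set leaves out by rule. The share called in the set is therefore fixed in part by the rule.

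With hrde-1(tm1200), against never-mutated hrde-1 in the 10 libraries without repair, 26 windows of the set in 17 regions were higher and 0 were lower. That is 1.04% of the set, against 0.37% of all windows tested called higher and 0.0242% called lower. The median log2 fold change was 0.09 in the set and -0.04 over all windows, and 58.1% of the set against 45.2% of all windows had positive values. The 26 windows are fewer separate signals than they appear, because 13 of them belong to 1 repeated element. The count was 11, 12, 13, 13 and 17 without the libraries met-2 set-25, met-2 set-25 tm1200, red11 tm1200 with met-2 set-25, red11 tm1200 and red11, respectively. It was 0 without all met-2 set-25 libraries and 0 without all set-32 mutants.

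This element was present at 7 places. They start at II 1076001, II 2267001, II 14688001, IV 508001, IV 702001, V 766001 and V 3325001. It was followed for at most 5 windows from each start, and 3 to 5 of these were in the set. Its full length was not measured. The regions of the set at II 1076001, IV 507001, IV 702001 and V 3325001 hold 6 windows each. In the first window of 5 of the 7 places the smallest value was 1/7 of a read. The first windows correlated with one another at r of at least 0.941 over the 19 libraries. Not all later windows did so: II 2269001 correlated with II 1078001, its counterpart by position, at only 0.309. The places on chromosome IV overlap pig-1, a protein kinase gene, and cutl-26, a cuticlin-like gene, and V 766001 overlaps str-238, a predicted chemoreceptor gene; the other 4 had no named gene. None of the first windows in these 3 genes holds an exon base. Since their reads were divided, the data do not tell which of the 7 places was transcribed.

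At IV 508001 the never-mutated libraries held 0.84 RPKM in N2, 1.47 in met-2 set-25, 0.16 in set-32(red11), 0.98 in set-32(ok1457) and 3.14 in ok1457 with met-2 set-25. The tm1200 libraries held 9.40 with tm1200 alone, 16.3 with met-2 set-25, 8.99 with set-32(ok1457), 14.6 with set-32(red11) and 12.7 with red11 with met-2 set-25. The groups did not overlap. The log2 fold change was 2.62 ± 0.45 (SE), with a limma adjusted p of 0.00186. First windows of the other 6 places had log2 fold changes between 2.47 and 2.73 and adjusted p from 0.00124 to 0.00664.

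The repaired libraries, which took no part in that comparison, separated by genotype at the same window. Without other mutations hrde-1(+R) held 0 RPKM at F4 and 1.22 at F5. With set-32(ok1457) it held 13.1 at F5 and 11.4 at F8, with set-32(red11) 13.4 at F4 and, a generation later, 11.5, and with red11 with met-2 set-25 13.7 at F5. With met-2 set-25 and intact set-32 it held 11.8 at F3 and 12.8 at F5. Only the 2 libraries of hrde-1(+R) alone were as low as the never-mutated ones.

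Summed over the 33 followed windows that were in the set, the hrde-1(+R) F4 and F5 libraries held 5.26 and 36.5 RPKM. These windows include II 2269001, which held 2.02 RPKM of the 5.26 in the F4 library. The 5 repaired set-32 mutant libraries held 260 ± 26.2 RPKM (SD, n = 5), all of them at least 239. The 2 repaired met-2 set-25 libraries with intact set-32 held 200 and 229 RPKM. The tm1200 libraries held 219 ± 51.4 RPKM (SD, n = 5) and the never-mutated libraries 36.9 ± 31.6 RPKM (SD, n = 5), where the highest, 90.9 RPKM, was ok1457 with met-2 set-25.

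**Figure D3:**
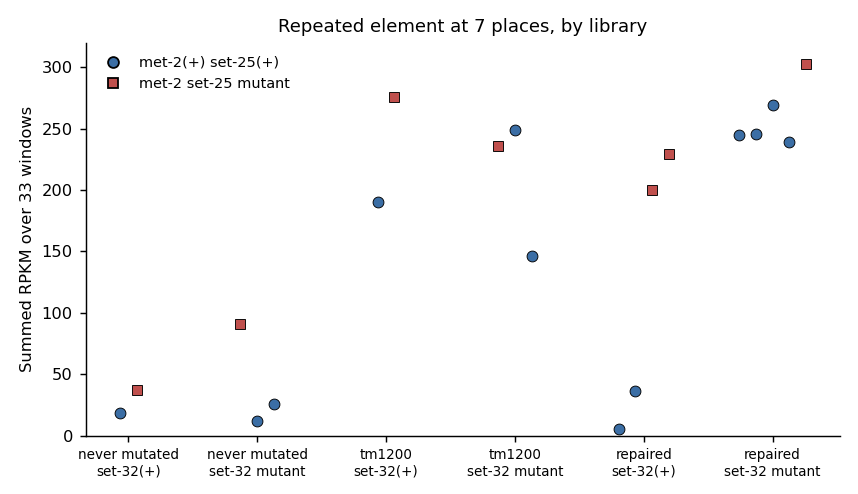
Summed RPKM over the 33 windows followed at the 7 places of the element (vertical axis, from 0), 1 point a library, by hrde-1 and set-32 state. Squares are met-2 set-25 mutants. The 2 repaired set-32(+) circles, at 5.26 and 36.5 RPKM, lie apart from every other repaired library, which hold 200 RPKM or more.

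The same order was seen in most windows called with tm1200. In 25 of the 26, all 5 repaired set-32 mutant libraries lay above both libraries of hrde-1(+R) alone, an arrangement found in 7.1% of all windows tested and in 11.3% of the set. In 20 of the 26, the 2 repaired met-2 set-25 libraries with intact set-32 also lay above them, against 20.9% of all windows tested. In 8 of the 26 the set-32 mutant libraries lay above both repaired met-2 set-25 libraries with intact set-32, against 4.76% of all windows tested. These counts use repaired libraries only, but 13 of the 26 windows share their reads, and the 26 lie in 17 regions. The first 2 counts rest on hrde-1(+R) F4 and F5 as the low libraries. These had 495029 and 603731 reads, against 840196 or more in the other repaired libraries. The part of read depth in this order was not tested.

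The test across all windows did not call the element in the repaired libraries. For set-32 loss in the 9 repaired libraries the log2 fold change at IV 508001 was 2.16, with a limma adjusted p of 0.223. That fit takes the effect of met-2 set-25 as the same with and without set-32. The difference between those effects was -3.02 ± 0.80 (SE) at this window, with an unadjusted limma p of 0.00146 and an adjusted p of 0.51, and 0 windows of the set passed that test, with 164 at an unadjusted p under 0.05, or 6.57% of the set against 7.36% of all windows. The fit with that difference was chosen after the values were seen.

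A region on chromosome IV that overlaps the annotated pseudogene WBGene00021886 behaved much like the element. The region, at IV 2899001 to 2914000, had 14 windows of the set, and 4 of them were called higher with tm1200. The window IV 2906001 lies in an intron of the pseudogene and holds no exon base. There the never-mutated libraries held 2.71 RPKM in N2, 4.27 in met-2 set-25, 2.19 in set-32(red11), 0.72 in set-32(ok1457) and 17.8 in ok1457 with met-2 set-25. The tm1200 libraries ranged from 16.9 to 19.9 RPKM. The fold change was 2.12 ± 0.43 on the log2 scale (SE, limma adjusted p = 0.0132), although the groups overlapped through the 1 library at 17.8. The call held in 7 of 10 fits that each left out 1 library, and was lost without tm1200 alone, red11 tm1200 or met-2 set-25 (adjusted p = 0.114, 0.078 and 0.0679).

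That window was also the only one of the set called in repaired against never-mutated libraries, higher by 1.87 ± 0.35 on the log2 scale (SE, limma adjusted p = 0.0254). Of all windows tested, 0.0218% were called higher there and 0.0169% lower. The hrde-1(+R) F4 and F5 libraries held 5.52 and 4.06 RPKM, and the other 7 repaired libraries between 14.5 and 26.5. Without hrde-1(+R) F4 18 windows of the set were called, without hrde-1(+R) F5 10, without N2 9 and without set-32(ok1457) 2. Without met-2 set-25, set-32(red11), the repaired met-2 set-25 F3 library or any 1 of the 5 repaired set-32 mutants, 0 were.

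A second kind of window differed from the element in the met-2 set-25 libraries. V 20300001, with a smallest value of 1/2 of a read, held 0 RPKM in all 5 never-mutated libraries. It lies in a stretch where the annotation did not line up with the table, so genes there were not named. In the tm1200 libraries it held 6.13 RPKM with tm1200 alone, 15.5 with met-2 set-25, 10.9 with set-32(ok1457), 16.2 with set-32(red11) and 24.4 with red11 with met-2 set-25. After repair it held 0 in hrde-1(+R) at F4 and F5, 0.6 and 0 in met-2 set-25 at F3 and F5, and 23.8, 18.4, 4.77, 14.4 and 11.3 in the 5 set-32 mutant libraries. Every set-32 mutant library was thus above every repaired library with intact set-32, met-2 set-25 included.

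V 20300001 was called in both comparisons. With tm1200 it was higher by 3.84 ± 0.48 on the log2 scale (SE, limma adjusted p = 2.3e-05), and with set-32 loss in the repaired libraries by 3.66 ± 0.52 (SE, limma adjusted p = 0.00228). Fold changes against a group at 0 depend on the added 1 RPKM and are no measure of a ratio. The set-32 effect in repaired libraries exceeded that in never-repaired libraries by 3.24 ± 0.69 (SE), with an adjusted limma p of 0.118, so this difference did not pass the test.

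Similar values were seen in II 12282001, where the smallest value was 1/4 of a read. This window lies in an intron of ife-5, which encodes a form of the cap-binding protein eIF4E, and holds no exon base. With tm1200 this window was higher by 2.71 ± 0.52 on the log2 scale (SE, limma adjusted p = 0.00701), and the call was lost without tm1200 alone or without red11 tm1200 with met-2 set-25 (adjusted p = 0.0595 and 0.0709). Its 5 tm1200 libraries ranged from 3.05 to 14.1 RPKM and its 5 never-mutated ones from 0 to 0.38. After repair the 5 set-32 mutant libraries held from 2.5 to 4.6 RPKM and the 4 with intact set-32 held 0, 1.66, 0 and 1.22, so these did not overlap either. II 2160001 likewise held between 9.04 and 10.2 RPKM in the repaired set-32 mutants and between 0 and 4.04 in the other repaired libraries. Its call with tm1200 held in 5 of 10 fits that each left out 1 library.

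Another kind was high with tm1200 and low in every repaired library. IV 913001, with no named gene, held 1.75 RPKM with tm1200 alone, 33.9 with met-2 set-25, 9.81 with set-32(ok1457), 28.7 with set-32(red11) and 59.4 with red11 with met-2 set-25. The never-mutated libraries held between 0 and 1.43 RPKM and the repaired libraries between 0 and 2.43. It was called higher with tm1200 by 3.39 ± 0.55 on the log2 scale (SE, limma adjusted p = 0.00089). Among the tm1200 libraries the 1 without other mutations was the lowest.

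In repaired against tm1200 libraries IV 913001 fell by 3.72 on the log2 scale, with a limma adjusted p of 0.00011. It was 1 of 3 windows of the set called lower in that comparison, and 0 were called higher. The 3 windows are 0.12% of the set, against 0.227% of all windows tested called lower and 0.0194% called higher. The set leaves out GRTS and GRH windows, so its lower share is fixed in part by the rule. The count with any mark allowed is in the closing section. The count was 1 without red11 tm1200 or without repaired red11 F4, and 5 without ok1457 tm1200. The others were III 13238001 with a log2 fold change of -1.88 and II 14326001 with -1.40. At III 13238001 the 5 never-mutated libraries held 0, hrde-1(tm1200) alone held 0, the 4 other tm1200 libraries between 2.32 and 8.93 RPKM, and the repaired libraries at most 0.32. It thus reached a mean of 1 RPKM, and with it the test, only through the tm1200 libraries, as IV 913001 did. The calls of III 13238001 and II 14326001 each held in 13 of 19 fits that left out 1 library, and that of IV 913001 in 19 of 19.

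V 18122001, which lies in an intron of the annotated pseudogene WBGene00050935 and holds no exon base, had a similar pattern, with a smallest value of 1/8 of a read. It was called higher with tm1200 by 2.70 ± 0.58 on the log2 scale (SE, limma adjusted p = 0.0215). This call held in only 3 of 10 fits that each left out 1 library, and the adjusted p in the 7 others was 0.0605 to 0.239. It held 0 RPKM with tm1200 alone, 6.34 with met-2 set-25, 17.1 and 17.5 with set-32 mutations and 60.1 with red11 with met-2 set-25. The repaired libraries held between 0.21 and 3.77 RPKM.

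**Figure D4:**
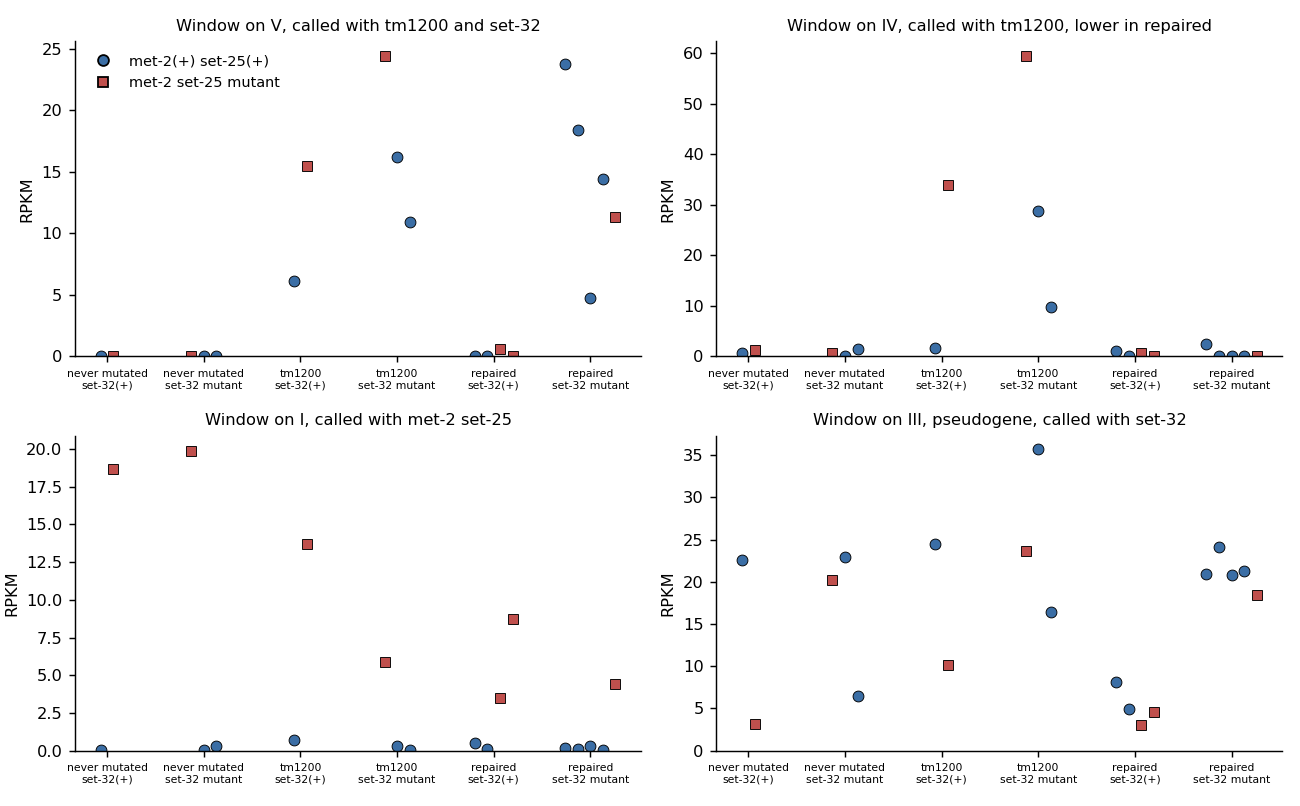
RPKM (vertical axes, from 0) of 4 single windows, 1 point a library, by hrde-1 and set-32 state; squares are met-2 set-25 mutants. Top left V 20300001, top right IV 913001, bottom left I 10217001 and bottom right III 9505001. Among repaired libraries the V window is high in set-32 mutants alone and the IV window is at most 2.43 RPKM. The I window is high in the 7 met-2 set-25 libraries, whatever their hrde-1 state.

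With set-32 loss in the repaired libraries 2 windows of the set were higher and 0 were lower, which is 0.0802% of the set, against 0.075% of all windows tested called higher. The share called lower over all windows was 0%. The share in the set was thus close to that over all windows, which include the GRTS and GRH windows left out of the set. Without the repaired red11 library with met-2 set-25 the count was 18, and it was 1 without any of hrde-1(+R) F5, met-2 set-25 F3, set-32(ok1457) F5 or F8, and set-32(red11) F4 or F5. Beside V 20300001 the other was III 9505001, in the annotated pseudogene WBGene00003067. There the repaired set-32 mutant libraries held 20.9, 24.1, 20.8, 21.3 and 18.4 RPKM, and the 4 with intact set-32 held 8.08, 4.97, 2.98 and 4.56. The fold change was 1.77 ± 0.31 on the log2 scale (SE, limma adjusted p = 0.0299). The call held in only 2 of 9 fits that each left out 1 library. Of the never-mutated libraries, N2, set-32(red11) and ok1457 with met-2 set-25 held 22.6, 23 and 20.2 RPKM, while met-2 set-25 and set-32(ok1457) held 3.14 and 6.45, within the range of the repaired libraries with intact set-32.

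With set-32 loss in the libraries never repaired, 0 windows of the set were called by limma, and 0% of all windows tested. At an unadjusted p under 0.05 there were 48 windows of the set, or 1.92%, against 3.55% of all windows.

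With met-2 set-25 in the libraries never repaired, 14 windows of the set were higher, against 0.0581% of all windows tested called higher, and 0 were lower, against 0.0121%. All 14 lay in the region I 10204001 to 10220000, which has 15 windows of the set and no annotated gene. All 15 carry the authors' mark for misannotation, whose meaning is not given in the sources used here. Averaged over the region, the 7 met-2 set-25 libraries held 3.22 to 11.7 RPKM, while the 12 others held 0.0687 to 0.389 RPKM. On average the region thus reached 1 RPKM, and with it the set and the test, only through the met-2 set-25 libraries. The calls and their share are therefore fixed in part by the rule.

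The mean over the region was 9.96 RPKM in met-2 set-25 and 11.7 in ok1457 with met-2 set-25, both with hrde-1 never mutated. It was 7.88 and 4.16 RPKM in the met-2 set-25 libraries with tm1200, and 3.22, 7.72 and 3.64 after repair. The met-2 set-25 libraries did not overlap with the others, whatever the state of hrde-1, in a region that entered the set through them. At I 10217001, the window with the largest fold change, the met-2 set-25 libraries were higher by 3.49 ± 0.52 on the log2 scale (SE, limma adjusted p = 0.00231). Without the ok1457 library with met-2 set-25 the count was 0. It was 1 without met-2 set-25 or met-2 set-25 tm1200, 2 without N2, 3 without tm1200 alone or red11 tm1200 with met-2 set-25, and 8 without red11.

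Over all 19 libraries 16 windows were called higher with met-2 set-25, against 0.0944% of all windows tested called higher, and 0 were lower, against 0.029%. They were the 15 windows of that region and I 9822001, which was higher by 1.81 ± 0.33 on the log2 scale (SE, limma adjusted p = 0.00664) and carries the same mark. I 9822001 averaged 3.66 RPKM in the 7 met-2 set-25 libraries and 0.161 in the 12 others. It too entered the test only through the former. The 16 share their pattern over libraries, so that they stand for about 1 signal. In the 9 repaired libraries alone none of them passed the test, with a lowest adjusted p of 0.301 in the region.

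In the 9 repaired libraries 1 window of the set was called lower with met-2 set-25 and 0 were called higher, against 0.0218% of all windows tested called lower and 0.00484% called higher. The count was 11 without the red11 library with met-2 set-25, and 0 without 7 of the 8 others, that is all but set-32(ok1457) F5. IV 14056001, in semo-1, which encodes a methanethiol oxidase, held 0, 0.46 and 1.19 RPKM in the repaired met-2 set-25 libraries and between 5.83 and 15 in the 6 others. It fell by 2.90 on the log2 scale, with a limma adjusted p of 0.0353, and the call held in only 2 of 9 fits that each left out 1 library. In the libraries never repaired it held 16.9 RPKM in met-2 set-25 and 17 in N2. The effect in repaired libraries minus that in never-repaired ones was -3.06 ± 0.60 (SE), with an adjusted limma p of 0.184, which did not pass the test.

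Gene families of the set differed widely between libraries, and none of the windows of 3 large families, sperm proteins, collagens and tRNAs, was called in a comparison. Major sperm proteins are small, nearly identical cytoskeletal proteins of sperm, and all 26 of their windows were in the set, with means from 4.65 to 20.1 RPKM. The highest was IV 10095001, which overlaps msp-36. It ranged from 0.83 RPKM in repaired set-32(ok1457) at F5 to 84.7 in the same genotype at F8. Summed over the 26 windows the level was 44.5 RPKM in the first of these and 1248 in the second, and 758 in hrde-1(+R) F4. A list of 10 sperm genes such as spe-11 and gsp-3 was summed over its windows as well. Only 2 of its 51 windows were also in the set. It gave 160 RPKM in set-32(ok1457) F8, 147 in hrde-1(+R) F4 and 33.1 to 106 in the 17 others. The sums of both lists were highest in the same pair of libraries.

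Cuticle collagens gave 40 windows, 17.5% of those that could be judged, with means from 1.46 to 47.2 RPKM. They led 5 of the 10 highest regions of the set, with V 9164001 (col-10), V 10424001 (col-12), V 9632001 (col-147), IV 11226001 (col-125) and II 4872001 (col-73). The window in col-12 held 300 RPKM in hrde-1(+R) F4 and between 1.59 and 114 RPKM in the 18 others. The window in col-73 held 105 RPKM in that library and 0 RPKM in 2 others, which made it 1 of the 5 most variable windows of the set.

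Summed over the 40 windows, collagens were at 2630 RPKM in hrde-1(+R) F4, at 1340 and 1194 RPKM in the set-32(ok1457) libraries without and with tm1200, and at 911 RPKM or less elsewhere. A list of 4 hypodermis and molting genes, dpy-7, bli-1, mlt-10 and nas-37, held 129, 112 and 76.3 RPKM in those 3 libraries and 18.4 to 70.9 in the 16 others. With set-32 loss in repaired libraries 26 of the 40 windows had an unadjusted p under 0.05, against 6.36% of all windows tested, and 0 were called. Their median log2 fold change was -1.44, against 0.03 over all windows. Without the hrde-1(+R) F4 library 2 of the 40 had such a p and the median was -0.67. The count was also 14 without the met-2 set-25 F5 library and 14 without set-32(red11) F5. The 4 repaired libraries with intact set-32 held 2630, 387, 121 and 778 RPKM and the 5 set-32 mutants 151 to 371, so the groups overlapped. The part of these marker levels in the values of the families was not tested. In bulk worms fewer cells of a type and less RNA per cell cannot be told apart.

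**Figure D5:**
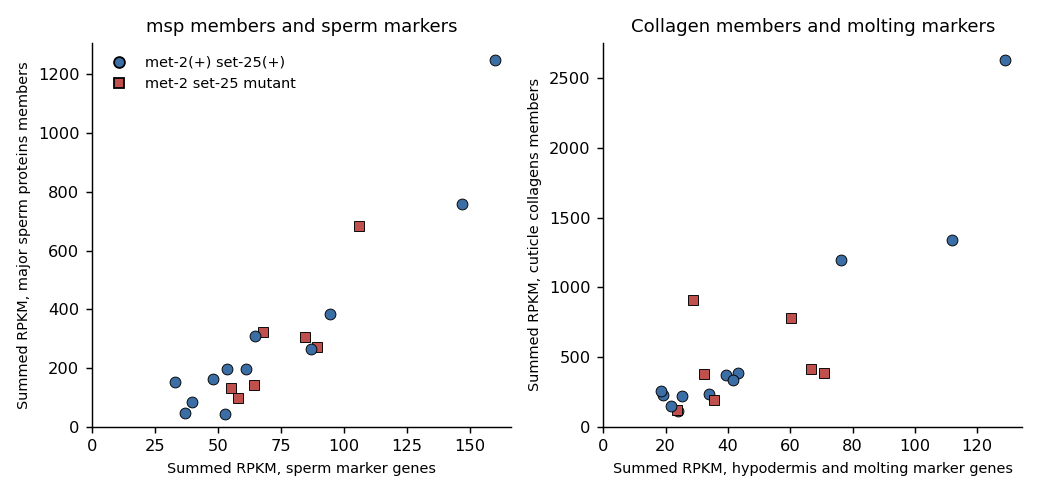
Each point is 1 of the 19 libraries; squares are met-2 set-25 mutants. Left, summed RPKM of the 26 major sperm protein windows against that of 10 sperm marker genes; right, summed RPKM of the 40 collagen windows against that of 4 hypodermis and molting genes. The library with the highest family sum is also highest in its markers, at 1248 and 160 RPKM on the left and at 2630 and 129 RPKM on the right.

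Other families were smaller. Among F-box genes, a large fast-changing family of ubiquitin ligase adaptors, 25 of 212 windows were in the set, and 13 of 62 among the BATH genes. The nspa to nspe genes gave 14 of 16 windows, and the highest was X 12343001 with nspc-10 and nspc-9, at 14.9 RPKM. Heat shock genes gave 3 windows, in hsp-16.1 and hsp-16.48. The windows II 11758001 and II 11759001 in F44E5.4 and F44E5.5, which encode heat-inducible HSP70 proteins, were among the 5 most variable, from 1.64 to 112 and from 0.55 to 61.3 RPKM. Their highest library was repaired met-2 set-25 at F3, which was also highest for hsp-16.1, with 52.4 RPKM. Histones gave 1 window, III 4058001 with his-69, which was steady at 12.1 to 19.8 RPKM. Vitellogenin, ubiquitin and actin windows gave 0, and most of theirs had too few low values to be judged.

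The remaining high windows were ssq-4 at IV 5017001, a sperm-enriched gene with a mean of 26.7 RPKM, acdh-2 at II 5546001, an acyl-CoA dehydrogenase gene with 23.7 RPKM, glc-1 at V 16219001, a glutamate-gated chloride channel gene with 23.4 RPKM, and Y59E1B.1 at X 1880001, a tRNA window, with 24.4 RPKM. None of these 4 was called in a comparison.

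At the edge of the rule, windows just inside had 52.6% fractional values and windows just outside had 50%. The 3 highest just inside were I 1376001 at 7.38 RPKM, V 17865001 at 6.91 and II 13946001 at 6.68. The 3 highest just outside were II 11760001 at 22.6 RPKM, in F44E5.5 and next to windows of the set, III 4437001 at 19.4 and II 8594001 at 18.7.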

How the data were processed

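Bowtie 0.12.7 is named in the submitters' processing notes; how reads with several places were divided, and the genome build of the table, are not stated in the sources used. The authors deposited RPKM per 1 kb window in 1 table; 19 of its value columns match the labels and 24 others were not used. The worth of 1 read in a library was taken as the most frequent positive value. The table's GRTS, GRH and misannotation marks were used as deposited. Windows carry the table's own positions, written from 1. Genes were named from WBcel235 (at least 250 bp of overlap) only in the 193 of 201 stretches of 500 windows where coding exons and signal lined up within 100 bp; 84 windows of the set lie in the others and have no name. Copies, divisors and groups came from the values in Python 3.11.15.

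Tests were made with limma 3.58.1 in R 4.3.3 on log2(RPKM + 1), with a trend in the prior variance, over every window whose mean reached 1 RPKM. There were 3 fits. The 10 libraries without repair had terms for tm1200, set-32 and met-2 set-25, the 9 repaired ones for set-32 and met-2 set-25, and all 19 for tm1200, repair, set-32 and met-2 set-25. They were tested on simulated whole reads, with large changes placed only in windows of at least 5 RPKM. That test does not cover divided reads or changes in lower windows. Comparisons share libraries, and are not independent. Members, lists and rules were chosen with earlier results of these data known. Windows named are the 10 highest regions, the called regions (at most 10 a direction), the 5 most variable windows, the highest window of each family, and copies; II 1076001, II 2160001, IV 2906001, the tRNA groups and the element were picked after their values were seen. Alternatives are in the closing section. No sequence is printed.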

Additional observations from a re-analysis of the deposited data

Results flagged for a closer look

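Among 120 sets of 4 or 5 repaired libraries looked at, 24 had 1 library far from the others. Chance flags about 1 in 20 groups, but many of these windows were named for high, variable or called values and copies hold the same reads, so the 24 are no measure against chance. The hrde-1(+R) F4 library was the highest in 9 of them among the 4 repaired libraries with intact set-32. In it bath-28 at II 3343001 held 17.2 RPKM against at most 9.11 elsewhere in the group, col-73 at II 4872001 held 105 against 15.5, and col-12 at V 10424001 held 300 against 52.2. In the same library ssq-4 at IV 5017001 held 78.8 RPKM against 11.4, ssp-36 at IV 9766001 held 21.7 against 3.93, and msp-36 at IV 10095001 held 35.6 against 7.51. The copies IV 5241001 and IV 5249001 both held 39.3 RPKM against 5.98, and the major sperm protein windows summed to 758 RPKM against 151.

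Among the 5 repaired set-32 mutant libraries, set-32(ok1457) F8 stood apart in sperm genes. It held 84.7 RPKM at IV 10095001 against 24.2 in the next library, 52.3 at both IV 5241001 and IV 5249001 against 14.1, and 1248 summed over the major sperm protein windows against 308. The set-32(ok1457) F5 library stood apart in heat shock genes, with 39.4 RPKM at II 11758001, 11.2 at V 9087001, 12.6 at V 9088001 and at V 9089001, and 36.5 summed over 3 heat shock windows. It also held the only values above 0 at III 13238001, with 0.32 RPKM, and at IV 913001, with 2.43.

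The F5 library of red11 with met-2 set-25, the only met-2 set-25 mutant of that group, held 4.43 RPKM at I 10217001 and 0.99 at I 9822001, against at most 0.28 in the others at either place, and 31.5 at IV 3552001 against 17.7. At V 20300001 the met-2 set-25 F3 library held 0.6 RPKM while the other 3 repaired libraries with intact set-32 held 0. Explanations of these values were not tested.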

How the results depend on the processing

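The labels give no replicate numbers, but 4 genotypes have a library with and one without tm1200. A fit of these 8 libraries with the genotype as a block, a pairing chosen after seeing the data, called 19 windows of the set in place of 26. Of the 26, 15 were called in it and all 26 kept their direction. The calls at II 12282001 (adjusted p = 0.0672), V 18122001 (0.335) and II 2160001 (0.0582) were lost in it. The repaired libraries have no such pairs. The 27 fold changes of called regions kept their direction under all alternatives run. Of 512 such repeats, 327 also stayed past the threshold and 185 did not.

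Counts of called windows moved by over 1.5 times as follows; the cause was not tested unless fewer windows or libraries entered. With a pseudocount of 0.1 the count with tm1200 was 3, with met-2 set-25 before repair 0 and after repair 0, with set-32 loss after repair 1, in repaired against never-mutated 0 and against tm1200 1. With a pseudocount of 5, repaired against never-mutated gave 4 and met-2 set-25 after repair 0. With no filter these were 1 with tm1200, and 0 with met-2 set-25 before or after repair, with set-32 loss after repair and in repaired against never-mutated. With a minimum mean of 5 RPKM tm1200 gave 13 and met-2 set-25 gave 0 in all 3 of its comparisons. Without the met-2 set-25 libraries tm1200 gave 0, repaired against either group 0 and set-32 loss after repair 5. Without the set-32 mutant libraries tm1200 gave 0 and met-2 set-25 gave 0 before repair and over all 19. With set-32(red11) libraries only, set-32 loss after repair gave 0.

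The set held 885 windows at over 80% fractional values and 4053 at over 20%. At over 80% tm1200 gave 11, met-2 set-25 gave 4 before repair, 0 after and 4 over all 19, set-32 loss after repair 0, and repaired against never-mutated 0 and against tm1200 1; at over 20% repaired against tm1200 gave 12. With any mark tm1200 gave 44, set-32 loss after repair 9, and repaired against never-mutated 4 and against tm1200 16. Without the misannotation mark met-2 set-25 gave 0 before repair and over all 19; at over 0.2 read it gave 1 and 2. With at least 10 low values set-32 loss after repair gave 0, and repaired against never-mutated 0 and against tm1200 1. Copies in all 19 libraries were 12 windows in place of 24.

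Leaving out 1 library at a time gave 11 to 27 windows with tm1200, 0 to 1 with set-32 loss and 0 to 15 with met-2 set-25 before repair. It gave 14 to 19 with met-2 set-25 over all 19 libraries, 1 to 18 with set-32 loss and 0 to 11 with met-2 set-25 after repair, 0 to 18 in repaired against never-mutated and 1 to 5 in repaired against tm1200. The 18 and 11 after repair came without the F5 library of red11 with met-2 set-25. The lowest with tm1200 came without met-2 set-25. At 0.868 to 2.18 RPKM a read, values below about 5 RPKM rest on few reads.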
